A study of Sus scrofa with 6 samples.

Results

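The cytosolic ribosomal proteins form the protein part of the ribosomes that translate nuclear mRNAs, and their transcripts were followed in longissimus muscle, the long back muscle, of pigs (Sus scrofa). Members were the gene records of the deposited table whose name is that of a cytosolic ribosomal protein (RPL or RPS with a number, RPLP0 to RPLP2, or RPSA) and whose genomic span is at least 150 bases. The rule used no expression value. It found 80 records of 7661 in the table, which carry 71 gene symbols, since 8 symbols stand on more than 1 record. 48 records encode proteins of the large subunit and 32 those of the small subunit. Of the 80 proteins of the mammalian ribosome, 68 had a member record, 3 were listed under other names and 9 were not matched by name (RPL10, RPL23A, RPL28, RPL39, RPL41, RPLP0, RPS7, RPS14 and RPS15A) and were not analysed here. The other 3 symbols, RPL7L1, RPL26L1 and RPS27L, belong to paralogues of ribosomal proteins.

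RNA sequencing was done on 3 pigs with high and 3 pigs with low intramuscular fat, the fat lying within the muscle between its fibre bundles. The sources used here do not give breed, sex, age, treatment or the fat content of each animal. The libraries held 25371989 to 34813172 reads, so that 3 reads corresponded to 0.0862 to 0.118 CPM (reads per 1e6 reads of the library). All levels are CPM scaled by TMM factors of 0.939 to 1.07, given as mean ± SD with n = 3 libraries per group, and log2 fold changes run as high minus low. The marker genes of skeletal muscle fibres that were matched (7 of 12, among them ACTA1 and CKM) summed to 101953 to 111321 CPM in the high and 95010 to 111907 CPM in the low libraries.

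Ribosomal proteins are assembled with rRNA into both subunits, and in vertebrates their mRNAs begin with a run of pyrimidines (the 5′ TOP element) through which mTOR and the binding protein LARP1 set their translation and storage together. Growing muscle adds ribosomes to raise its capacity for protein synthesis. The stalk proteins RPLP1 and RPLP2 recruit the elongation factors, RPL3, RPL4 and RPL8 line the region of peptide bond formation and the start of the exit tunnel, and RPS6 is the substrate of the S6 kinases.

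No ribosomal protein transcript passed the test between the high and the low pigs. None of the 80 records passed the threshold (edgeR quasi-likelihood adjusted p under 0.05), and 0 had an unadjusted p under 0.05. The same fit called 0.144% of all records at the threshold, and 18.5% of them had an unadjusted p under 0.05. DESeq2, which called 6.76% of the table, and edgeR's exact test, which called 4.12%, each called 0 of the 80 as well. The smallest adjusted p among members was 0.2996. In the authors' deposited table the lowest false discovery rate of a member was 0.454, that of RPL8. The lowest adjusted p of a member in edgeR's exact test was the same, 0.454, so the deposited value is not a separate result.

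What the transcripts did share was their rise and fall from library to library. Low library 3 held the highest level of 76 of the 80 records, where it held the highest of 24.9% of all records. Members summed to 2.91% of the reads of low library 3. They took 2.06% and 2.29% in low libraries 1 and 2, and 2.05%, 2.34% and 2.13% in high libraries 1 to 3. The low library with the most ribosomal protein reads thus stood above every other library, and the remaining 5 lay within the same narrow range. The group means were 2.17% ± 0.147 (SD, n = 3) in the high and 2.42% ± 0.442 (SD, n = 3) in the low pigs, and low libraries 1 and 2 alone had a mean of 2.17%.

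**Figure D1:**
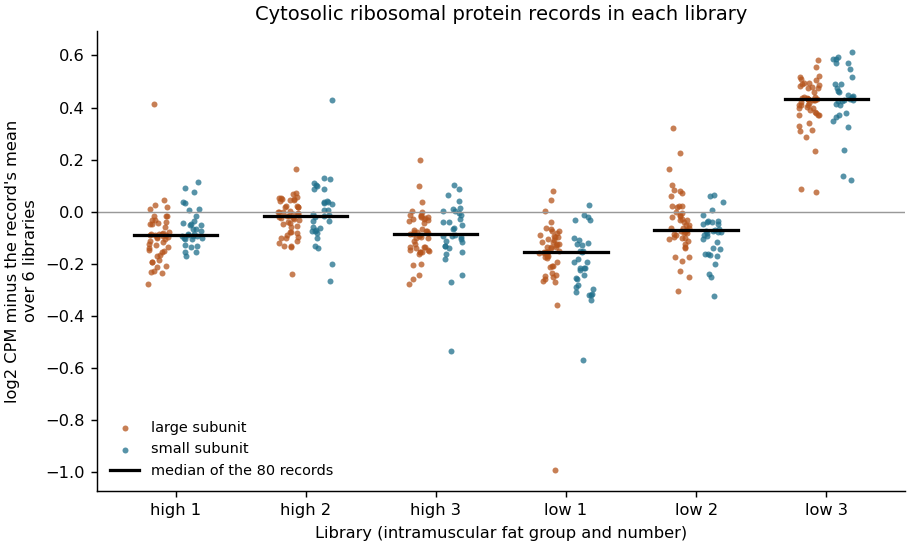
Level of each of the 80 ribosomal protein records in each library, as log2 CPM minus the record's mean over the 6 libraries; each point is 1 record, coloured by subunit, and bars are medians. The median stood at 0.43 in low library 3 and between -0.16 and -0.02 in the other 5 libraries.

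Relative to each record's mean over the 6 libraries, the median member stood at -0.09, -0.02 and -0.09 on the log2 scale in high libraries 1 to 3. In low libraries 1 to 3 it stood at -0.16, -0.07 and 0.43. All 80 records lay above their own mean in low library 3, against 4 in low library 1 and 16 in low library 2. The level in low library 3 was 1.43 times the mean of the other 5 libraries for the median member, with a range over members of 1.06 to 1.66.

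Members moved as a block within each library. The interquartile range of their deviations was 0.0918 to 0.130 on the log2 scale in the 6 libraries, while that of all records was 0.263 to 0.441. Across the 3 high pigs the median SD of log2 CPM was 0.0729 for members and 0.153 for all records. Across the 3 low pigs it was 0.327 for members and 0.213 for all records. The larger value of the low pigs rested on low library 3: without it, the median SD over low libraries 1 and 2 was 0.0853 for members and 0.147 for all records, a choice made after seeing the data. With all 6 libraries, the SD was smaller in the high than in the low group for 77 of the 80 records, as it was for 64.4% of all records.

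Both subunits followed the same course. Large-subunit records took 1.25% to 1.43% of the high libraries and 1.28%, 1.41% and 1.78% of low libraries 1 to 3. Small-subunit records took 0.797% to 0.905% of the high libraries and 0.777%, 0.883% and 1.13% of low libraries 1 to 3. The ratio of large- to small-subunit reads was 1.58 ± 0.00733 (SD, n = 3) in the high and 1.602 ± 0.0389 (SD, n = 3) in the low group, with its highest value, 1.64, in low library 1.

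The fold changes were small and mostly negative, and that direction rested on low library 3. 69 of the 80 records were lower in the high group and 11 higher, with a median log2 fold change of -0.16 and a range of -0.38 to 0.11; of all records, 54.8% were lower, with a median of -0.04. Without low library 3, 24 of the 80 were lower and 56 higher, with a median of 0.09, and 51.4% of all records were lower. The medians were -0.16 for the large subunit (44 of 48 records lower) and -0.13 for the small subunit (25 of 32 lower). Standard errors of single records lay between 0.12 and 0.37. The 95% interval of every member, not adjusted for the number of tests, included no change and lay within 2-fold either way; for the median member it ran from 0.667-fold to 1.24-fold.

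**Figure D2:**
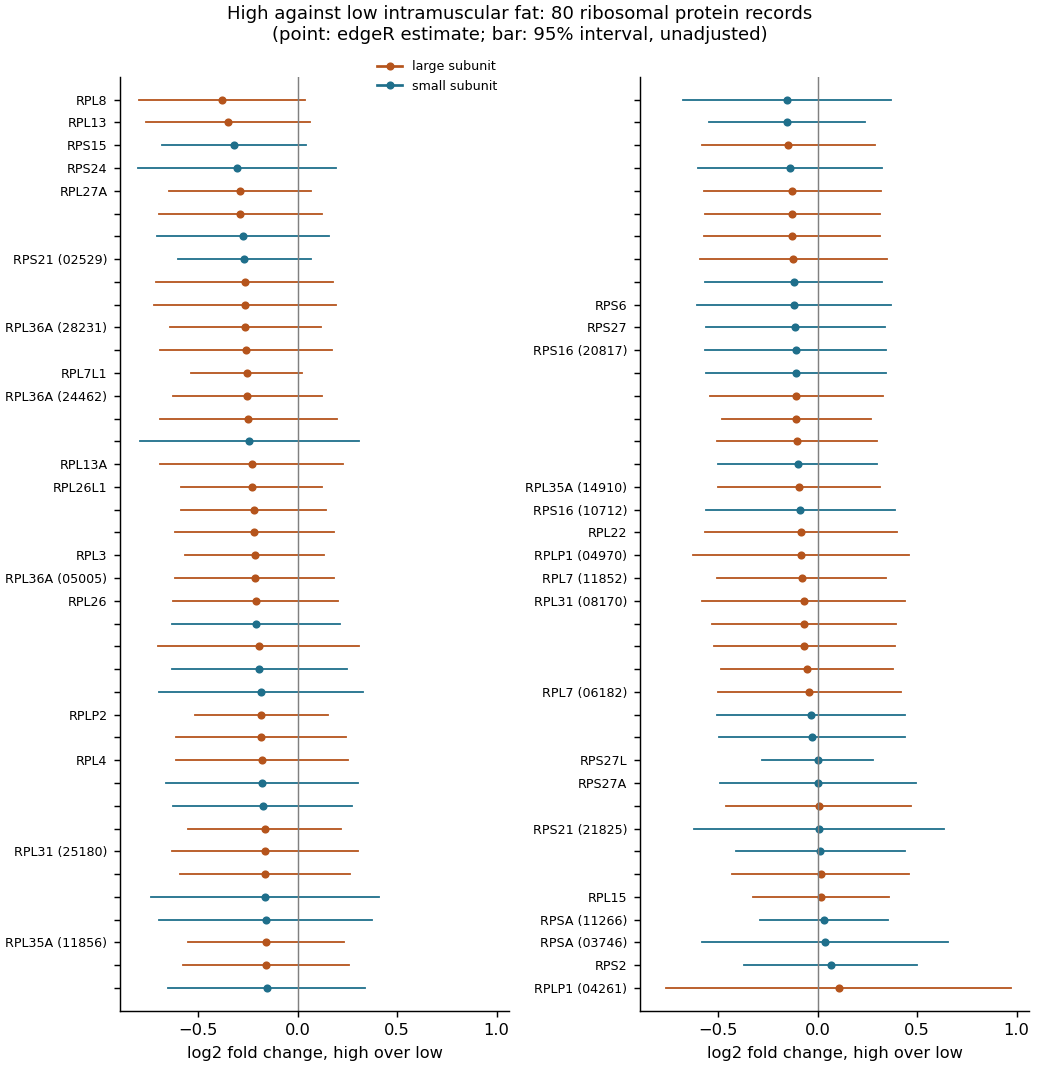
Log2 fold change, high over low, of each of the 80 records in order of size; points are edgeR estimates, bars their unadjusted 95% intervals, and colours the subunits. Symbols are given for the records picked by the naming rule; digits after a symbol are the last 5 of the Ensembl identifier where a symbol has more than 1 record. Estimates run from -0.38 to 0.11, and every interval crosses 0.

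The groups did not overlap in 6 records, all lower in the high pigs, and in 0 that were higher; over all records 13.3% were lower and 13.5% higher without overlap. Among them were RPL8, RPL13, RPS15, RPL7L1 and the RPS21 record ENSSSCG00000002529. RPL8 (ENSSSCG00000029830, chromosome 4, 207052 to 209523), a large-subunit protein at the peptidyl transferase centre, had 305, 318 and 287 CPM in high libraries 1 to 3 and 344, 348 and 493 CPM in low libraries 1 to 3. The 2 nearest libraries of opposite groups were high 2 and low 1, and low library 3 stood apart from both. Its log2 fold change was the lowest of all members, at -0.38 (SE 0.18, edgeR quasi-likelihood adjusted p = 0.301), or -0.18 without low library 3.

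RPL13 (ENSSSCG00000024974, chromosome 6, 517793 to 520205), also of the large subunit, stood at 193, 190.2 and 177 CPM in the high and 198, 219.9 and 297 CPM in the low libraries. High library 1 and low library 1 were close to each other. Its log2 fold change was -0.35 (SE 0.18, adjusted p = 0.325 in edgeR), or -0.16 without low library 3. RPS15 (ENSSSCG00000023248, chromosome 2, 77933425 to 77937774), a small-subunit protein near the decoding site, had 189, 183 and 169 CPM in the high and 198, 209 and 267 CPM in the low libraries. The pattern was that of RPL13, and the log2 fold change was -0.32 (SE 0.16, adjusted p = 0.313 in edgeR), or -0.17 without low library 3.

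RPS24 and RPL27A had the next lowest fold changes after RPS15, though their groups overlapped. RPS24, a small-subunit protein mutated in human Diamond-Blackfan anaemia, was at 533, 539 and 552 CPM in the high and 585, 531 and 892 CPM in the low libraries. Its log2 fold change of -0.31 (SE 0.21) became -0.04 without low library 3. RPL27A, of the large subunit, had 269, 336 and 284 against 336, 345 and 404 CPM, and kept a log2 fold change of -0.20 without that library, against -0.29 (SE 0.15) with it.

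The records with the most reads showed the shared pattern most plainly. They are compared over libraries and not with one another, because read numbers also depend on transcript length. RPLP1 (ENSSSCG00000004970, chromosome 1, 185385027 to 185387204), of the stalk, was at 1378, 1384 and 1364 CPM in the high libraries and at 1250.3, 1128 and 1994 CPM in the low libraries. The 3 high pigs were nearly alike and lay between the low libraries, and the log2 fold change was -0.08 (SE 0.23, edgeR adjusted p = 0.865).

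RPL13A (ENSSSCG00000003166, chromosome 6, 50293762 to 50373937) had 880.5, 975 and 883 CPM in the high and 898, 952 and 1364 CPM in the low libraries. Its record spans 80176 bases and overlaps other listed records on the same strand, so that its reads may be shared with them. RPL4 (chromosome 1, 182226366 to 182231629), a protein of the exit tunnel, had 745, 808 and 772 CPM in the high and 748, 791 and 1096 CPM in the low libraries. In both, low library 3 was high and the other 5 libraries overlapped. The log2 fold changes were -0.23 (SE 0.20) for RPL13A and -0.18 (SE 0.19) for RPL4.

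RPS6 (ENSSSCG00000005169, chromosome 1, 227094945 to 227098140) stood at 649.5, 747 and 622 CPM in the high and 622, 618 and 953 CPM in the low libraries. Its groups overlapped, and its log2 fold change was -0.12 (SE 0.21, edgeR adjusted p = 0.777). The other stalk protein, RPLP2 (chromosome 2, 164439 to 166560), had 174, 163 and 166 CPM in the high and 174, 177 and 222 CPM in the low libraries. RPL3 (chromosome 5, 6216929 to 6223999), at the peptidyl transferase centre, had 106, 121 and 123 CPM against 114, 140.0 and 153 CPM. RPL22, an RNA-binding protein of the large subunit, had 215, 236 and 223 CPM against 190.1, 207 and 318 CPM. RPL22 had its 2 lowest values in low libraries 1 and 2, which RPLP2 and RPL3 did not. RPS27A, made as a fusion with ubiquitin, had equal means in both groups, 356 ± 19.0 and 356 ± 104 CPM (SD, n = 3), with 287, 305 and 475 CPM in low libraries 1 to 3.

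At the upper end of the fold changes, no record had groups apart. RPL15 (chromosome 13, 12255865 to 12257346), of the large subunit, had 131, 134 and 128 CPM in the high and 112, 124 and 152 CPM in the low libraries, and a log2 fold change of 0.02 (SE 0.15). RPSA, the small-subunit protein also known as a laminin receptor, was highest in high library 2 on both of its records. Low library 3 stood at 1.10 times the mean of the other libraries in its main record and at 1.30 times in its other record. Its record with more reads (ENSSSCG00000011266, chromosome 13, 26391341 to 26393247) had 239.5, 261 and 224 CPM in the high and 219, 231 and 259 CPM in the low libraries. Its other record (ENSSSCG00000003746, chromosome 6, 113006062 to 113112752) spans 106691 bases, lies within FHOD3 in part, and had 38.8, 48.2 and 24.6 against 29.4, 34.0 and 45.6 CPM.

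The 3 paralogues showed little of the peak in low library 3. There the paralogues lay at 1.06 to 1.12 times the mean of the other libraries, the smallest such ratios beside that of the main RPSA record. RPS27L, which is induced by p53 in human cells, had 65.6, 62.02 and 68.1 CPM in the high and 63.7, 60.5 and 71.5 CPM in the low libraries. RPS27 (chromosome 4, 104599236 to 104600403), whose protein it resembles, had 155, 163 and 185 CPM in the high and 148, 163 and 232 CPM in the low libraries. RPS27L was thus close to level across the pigs, and its reads were 42.9% of those of RPS27 in low library 1 and 30.8% in low library 3. The fold of RPS27L, high over low, had an unadjusted 95% interval of 0.825 to 1.21 (edgeR adjusted p = 0.9997).

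**Figure D3:**
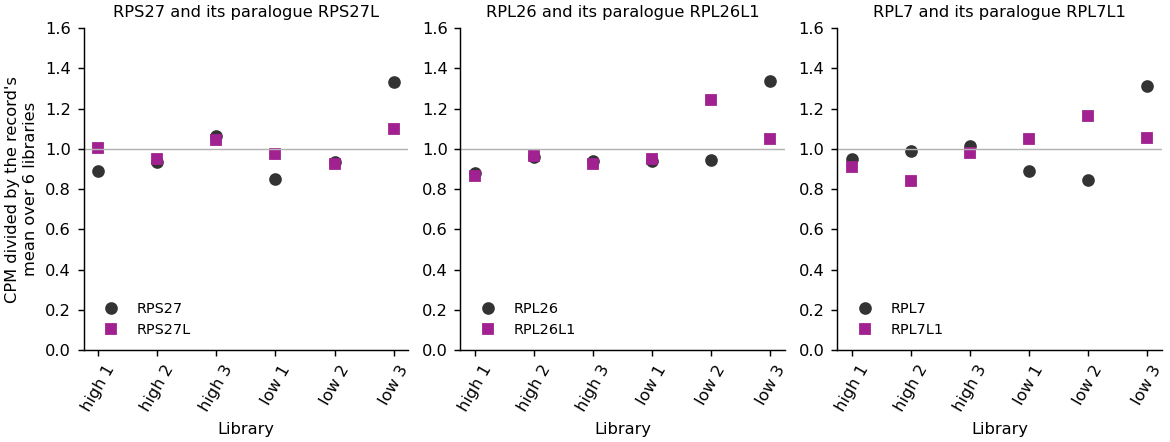
CPM of 3 ribosomal protein records (circles) and of their paralogues (squares) in each library, divided by the record's mean over the 6 libraries. RPS27, RPL26 and RPL7 peak in low library 3, whereas RPL26L1 and RPL7L1 peak in low library 2 and RPS27L varies little; RPL7 is the record with more reads.

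RPL26L1 (chromosome 16, 55580786 to 55590313) had 11.1, 12.4 and 11.9 CPM in the high and 12.2, 15.9 and 13.4 CPM in the low libraries. RPL26, its partner, had 401, 437 and 427 CPM against 428, 429 and 608 CPM. The paralogue was highest in low library 2 and the partner in low library 3. The log2 fold changes were -0.23 (SE 0.15) and -0.21 (SE 0.18), and only that of RPL26 shrank without low library 3, to -0.02, while RPL26L1 stood at -0.25.

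RPL7L1 (ENSSSCG00000026472, chromosome 7, 43388884 to 43399417), a relative of RPL7, had 34.3, 31.7 and 36.9 CPM in the high and 39.5, 43.8 and 39.7 CPM in the low libraries. Its groups did not overlap and no library stood apart. It had the smallest p of the 80 records, which did not pass (adjusted p = 0.2996, edgeR quasi-likelihood test). Its log2 fold change was -0.26 (SE 0.12), and -0.27 without low library 3. RPL7 (ENSSSCG00000006182, on the unplaced scaffold GL894040.1) had 536, 557 and 573 CPM in the high and 500.4, 476 and 740.1 CPM in the low libraries.

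Where a symbol stood on more than 1 record, the records mostly ran in parallel. Both RPL36A records on chromosome 16 (97773 to 98093 and 47680489 to 47680809) span 321 bases, and the count of one was between 98.6% and 100.1% of the other in every library. The third RPL36A record, on chromosome 1, held 30.1% to 32.8% of those counts. The lesser record of RPS16 held 58.3% to 62.4% of the reads of the greater, that of RPL35A 70.1% to 75.3%, that of RPL31 62.8% to 75.6%, and that of RPL7 2.93% to 3.33%. Whether the records of a symbol share reads was not tested.

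The shares of the RPS21, RPLP1 and RPSA pairs varied more, and that of the lesser RPSA record ran from 11.0005% in high library 3 to 18.5% in high library 2. The RPS21 record on chromosome 17 (69172955 to 69173861) had 60.004, 57.8 and 56.4 CPM in the high and 37.9, 51.0 and 84.7 CPM in the low libraries. The RPS21 record on chromosome 7, which spans 345 bases, had 88.2, 80.3 and 85.1 CPM in the high and 94.1, 91.5 and 120.1 CPM in the low libraries. The first varied more over the low pigs than the second did, and its reads as a share of those of the second ran from 40.3% in low library 1 to 72.0% in high library 2. Their log2 fold changes were 0.01 (SE 0.27) and -0.27 (SE 0.14). The short RPLP1 record (ENSSSCG00000004261, chromosome 1, 50172728 to 50173054) had 12.6, 9.88 and 8.43 CPM in the high and 4.69, 9.92 and 14.1 CPM in the low libraries, with the highest standard error of all members, 0.37. The RPS2 record, of 844 bases, had 9.22, 10.8 and 10.5 CPM against 9.63, 7.84 and 11.6 CPM.

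Ribosomal proteins outside the naming rule followed the block. GNB2L1 (the earlier symbol of RACK1), a scaffold protein on the small subunit, had 386, 424 and 372 CPM in the high and 351, 389 and 584 CPM in the low libraries. FAU, a fusion protein of the small subunit, had 153, 158 and 164 CPM against 153, 155 and 216 CPM. All 3 records under other names were highest in low library 3, and 0 of 3 passed the threshold.

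Other genes of ribosome supply were read in the same way, with no test between the lists. Among 17 other TOP genes, such as the elongation factors EEF2 and EEF1G, 13 records were matched. Low library 3 was the highest for 10 of the 13, whose median log2 fold change was -0.04, and 0.14 without that library. TPT1 and VIM, the 2 with the lowest p, did not follow. TPT1 was lowest in low library 3, with 101, 72.1 and 127 CPM in the high and 95.6, 64.8 and 52.3 CPM in the low libraries. VIM was highest in high library 2, with 324, 473 and 442 against 272, 340 and 370 CPM. Their log2 fold changes were 0.50 (SE 0.28) and 0.34 (SE 0.20), and neither passed the threshold. Among the 63 records of ribosome biogenesis factors, which process rRNA and assemble the subunits, 56 had lower means in the high pigs (median -0.23), and 52 were lower, with a median of -0.19, without low library 3. None of these records passed the threshold. The groups did not overlap in 21 that were lower and 1 that was higher, where 13.3% and 13.5% of all records did so. PPAN, a nucleolar factor of large-subunit assembly, had 7.37, 8.82 and 6.80 CPM in the high and 11.2, 16.1 and 17.2 CPM in the low libraries. Its log2 fold change was -0.95 (SE 0.21, adjusted p = 0.112 in edgeR). NOB1, the nuclease that finishes small-subunit rRNA, had 10.5, 10.8 and 12.6 against 15.9, 17.3 and 19.0 CPM, which gave -0.63 as log2 fold change (SE 0.15, edgeR adjusted p = 0.116).

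**Figure D4:**
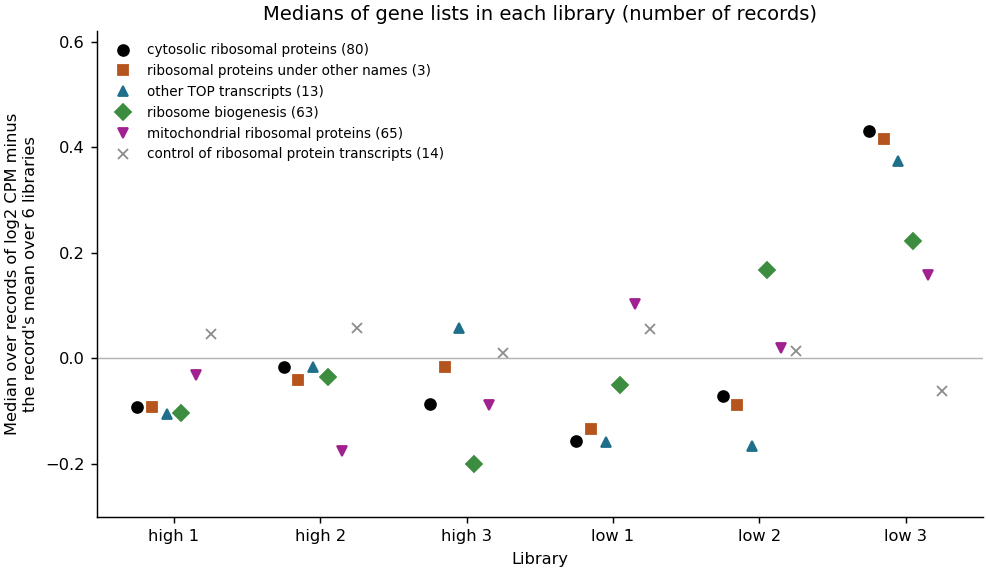
Median over the records of each gene list of log2 CPM minus the record's mean over the 6 libraries, per library, with the number of records in brackets. Cytosolic ribosomal proteins, their members under other names and other TOP transcripts stand highest in low library 3 (0.43, 0.42 and 0.37), where mitochondrial ribosomal proteins stand at 0.16.

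The mitochondrial ribosomal proteins build the separate ribosome of mitochondria. Their 65 records had a median log2 fold change of -0.20 (57 lower), and -0.14 without low library 3 (52 lower). Their groups did not overlap in 22 lower and 2 higher records, where 13.3% and 13.5% of all records did so. Low library 3 was the highest for 26 of the 65, for 76 of the 80 cytosolic records and for 24.9% of all records. MRPL12 came nearest to the threshold, with 9.55, 11.3 and 8.78 CPM in the high and 16.8, 17.0 and 18.1 CPM in the low libraries (log2 fold change -0.81, SE 0.15, edgeR adjusted p = 0.0921). The difference between the cytosolic and the mitochondrial sets was not tested. The 14 matched records for the control of ribosomal protein transcripts, among them LARP1, RPTOR and RPS6KB1, had a median of 0.01, with 7 lower, 7 higher and 0 past the threshold.

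Other measures were set beside the library pattern, and their part in it was not tested. Members are short genes, with a median span of 3467 bases against 21715 bases over all records, and 77 of 80 were shorter than the latter. Spearman's rho across all 7661 records between genomic span and the deviation of a library from the record's mean was -0.42 in low library 3, -0.06 and -0.14 in low libraries 1 and 2, and 0.23, 0.35 and 0.24 in high libraries 1 to 3; genes are not independent replicates. With that trend removed in each library, the median member in low library 3 stood at 0.25 instead of 0.43, and in high libraries 1 to 3 at -0.04, 0.10 and -0.02. The median log2 fold change of the members then became 0.01, with 36 lower and 44 higher. Low library 3 was the highest of all 6 for the members with and without the trend.

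**Figure D5:**
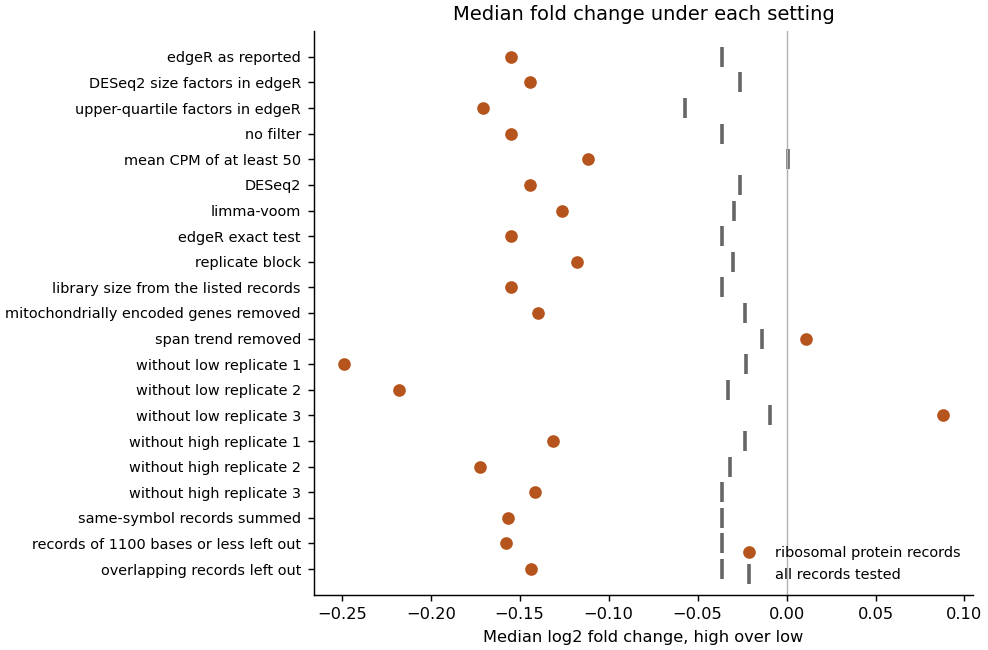
Median log2 fold change, high over low, of the ribosomal protein records (circles) and of all records tested (bars) under each setting of the analysis. The circles lie between -0.25 and -0.11 except with the span trend removed (0.01) and without low library 3 (0.09).

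Markers of other cell types were summed per library as well. The 6 macrophage records matched (of 9 genes listed, with CD68, CD163, CD14 and AIF1 not matched and none of the matched ones at 0) summed to 147 to 219 CPM in the high libraries. In low libraries 1 to 3 they summed to 86.3, 212 and 255 CPM. The sum was highest in low library 3, as were 4 of the 6 records, while CSF1R and MRC1 were highest in high library 2. The 9 adipocyte records summed to 349 to 699 CPM in the high and 325 to 370.2 CPM in the low libraries, with 7 of 9 higher in the high group, a median log2 fold change of 1.15 and PLIN1, a lipid droplet protein, past the threshold (2.75, edgeR adjusted p = 0.0409). The 15 fibroblast records summed to 3794 to 4969 CPM in the high and 1634 to 3320.0 CPM in the low libraries. In whole muscle, a change in the share of a cell type and a change of RNA per cell cannot be told apart. Mitochondrially encoded genes took 8.06% of low library 3 and 6.99% to 12.7% of the others.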

How the data were processed

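Total RNA of 6 longissimus muscles was made into Illumina TruSeq libraries, per the labels' protocols. FastQC 0.10.1, Trimmomatic 0.22, TopHat2 2.0.4 and BWA 0.6.2 are named in the submitters' processing notes; for the read counter, strand setting, genome build and annotation, the answer is not given in the sources used here. Positions are printed as deposited. The authors deposited raw read counts per Ensembl record and CPM, which equal the count per 1e6 of 1 library total; each of the 7661 records has a CPM above 10 in at least 3 libraries. The deposited log2 fold changes (low over high), p-values and false discovery rates come from the authors' unnamed test and were turned to high over low. The lowest values of a member matched those of edgeR's exact test run here (p = 0.0943, adjusted p = 0.454).

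Counts were tested over the whole table with edgeR 4.0.16 (R 4.3.3): TMM, filterByExpr, which kept all 80 members, the quasi-likelihood F-test without covariates and Benjamini-Hochberg adjustment at 0.05. The edgeR quasi-likelihood and exact tests, DESeq2, limma-voom and the removal of the span trend were tried on simulated counts. Log2 CPM used a prior count of 2. Replicates are separate pigs per the series' design. With 3 against 3 pigs the smallest p that exact permutation allows is 0.1, and p-values were taken from the fit across all records. Intervals of fold changes include the variation between pigs; the floor of 3 reads covers counting error only. The members and gene lists were chosen with earlier results of these data known. Named members were those past the threshold, the 5 extremes of fold change and of CPM at either end, paralogues with their partners, 7 set names (of which RPLP0 and RPL10 were not matched) and all symbols on more than 1 record. Of each other list, 2 records at most were picked by p, and only some are printed. Alternatives were other scalings, filters and tests (DESeq2 1.42.0, limma-voom 3.58.1), the replicate block, removal of single libraries, of mitochondrial genes or of the span trend (lowess of the deviation on log10 span, fraction 0.3), and summed same-symbol records. Leaving out records of 1100 bases or less, or overlapping ones, was chosen after seeing the data. Some items are not reported here. No sequences are shown because no sequence table was used here.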

Additional observations from a re-analysis of the deposited data

How the results depend on the processing

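No ribosomal protein record passed the threshold under any alternative run in which it was fitted; a mean CPM of at least 50 left 73 of the 80 in the fit. The count of all records past it, 11, became 2 with a mean CPM of at least 50, 2 with the replicate block, 77 at a threshold of 0.1, 316 with edgeR's exact test and 518 with DESeq2. It ran from 1 (without low library 2) to 30 (without low library 1) when single libraries were left out; the cause was not tested. The median log2 fold change of members, -0.16, became 0.011 with the span trend removed, and ran from -0.25 to 0.088 without single libraries. The difference in library share, -0.245 percentage points, ran from -0.427 to 3.51e-04. Both upper ends came without low library 3.

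The replicate numbers were not found to pair the pigs: same-numbered libraries had correlations of 0.118, 0.0312 and -0.0815, and not every library correlated best with its own number. With the block, 0 members passed, and the median was -0.12.

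Signs were followed for the named records only, and those that changed are listed here, none of them past the threshold. With the span trend removed, 11 of the named records changed sign and 25 did not. Of all 80 records, 69 were lower in the high group, against 36 with the span trend removed and 24 without low library 3. With the span trend removed the values were 0.015 for RPL35A ENSSSCG00000011856, 0.061 for RPS6 ENSSSCG00000005169, 0.045 for RPS27 ENSSSCG00000006558, 0.068 for RPS16 ENSSSCG00000020817, 0.059 for RPL35A ENSSSCG00000014910, 0.092 for RPS16 ENSSSCG00000010712, 0.054 for RPL22 ENSSSCG00000003367, 0.095 for RPLP1 ENSSSCG00000004970, 0.071 for RPL7 ENSSSCG00000011852, 0.13 for RPL7 ENSSSCG00000006182, -0.18 for RPSA ENSSSCG00000003746. With a mean CPM of at least 50, RPL7 ENSSSCG00000006182 had 0.0033. With upper-quartile factors, RPS27L had -0.019, RPS27A -0.013 and RPS21 ENSSSCG00000021825 -0.0067. With records of 1 symbol summed, RPS27L had -5.5e-04 and RPS27A -2.7e-05. Without single libraries the values ran from -0.27 to 0.016 for RPL4 ENSSSCG00000004945, -0.30 to 0.080 for RPL31 ENSSSCG00000025180, -0.26 to 0.036 for RPL35A ENSSSCG00000011856, -0.23 to 0.12 for RPS6 ENSSSCG00000005169, -0.22 to 0.11 for RPS27 ENSSSCG00000006558, -0.24 to 0.11 for RPS16 ENSSSCG00000020817, -0.20 to 0.12 for RPL35A ENSSSCG00000014910, -0.23 to 0.15 for RPS16 ENSSSCG00000010712, -0.21 to 0.18 for RPL22 ENSSSCG00000003367, -0.24 to 0.22 for RPLP1 ENSSSCG00000004970, -0.17 to 0.12 for RPL7 ENSSSCG00000011852, -0.19 to 0.21 for RPL31 ENSSSCG00000008170, -0.16 to 0.19 for RPL7 ENSSSCG00000006182, -0.051 to 0.077 for RPS27L ENSSSCG00000023158, -0.12 to 0.27 for RPS27A ENSSSCG00000022357, -0.21 to 0.39 for RPS21 ENSSSCG00000021825, -0.063 to 0.16 for RPL15 ENSSSCG00000028079, -0.029 to 0.11 for RPSA ENSSSCG00000011266, -0.20 to 0.26 for RPSA ENSSSCG00000003746, -0.066 to 0.22 for RPS2 ENSSSCG00000006008, -0.21 to 0.50 for RPLP1 ENSSSCG00000004261. The short RPLP1 record had the highest SE among members, 0.37.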

Other observations

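Many ribosomal protein genes carry small RNA genes in their introns. Of the 80 records, 28 overlapped another listed record, and 21 of these held between them 40 records of 150 bases or less, for instance SNORD100, SNORD101 and SNORA33 in RPS12. A further set of 11 overlapped a longer record, 4 of them on the same strand (RPS19, RPL13A and 1 record of RPSA among them) and 7 on the opposite strand alone. The strand setting of the counts is not given, so reads of such pairs cannot be told apart. Without the 28 overlapping records the median log2 fold change of the other 52 was -0.14, with 45 lower, and without the 10 records of 1100 bases or less it was -0.16, with 62 of 70 lower.

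After the median of each library was taken out, the median member varied with an SD of 0.0792 on the log2 scale over the 6 libraries. The short RPLP1 record ENSSSCG00000004261 (0.450), the long RPSA record ENSSSCG00000003746 (0.306), RPL7L1 (0.252), RPL26L1 (0.245) and the RPS21 record ENSSSCG00000021825 (0.222) varied most; they were ranked after their values were seen.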
